A study of Homo sapiens with 288 samples.

Results

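The matrix metalloproteinases (MMPs), the ADAMTS proteases and the tissue inhibitors of metalloproteinases (TIMPs) were examined in single endothelial (EC) and trophoblast-like (TB) cells derived from H1, an established human embryonic stem cell line. Members were taken by gene symbol alone, as MMP, ADAMTS or TIMP followed by a number, which gave 22 MMP, 18 ADAMTS and 4 TIMP genes, or 44 of the 17492 protein-coding genes in the tables. The rule uses no measured value.

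EC cells came from H1 cells given 5 ng/ml BMP4 and 25 ng/ml Activin A for 2 days and then VEGF and WNT for 3 days, and TB cells from H1 cells kept without FGF2 in 50 ng/ml BMP4 and the Activin and TGF-beta receptor inhibitor SB431542. Each cell was captured with a Fluidigm C1, an instrument that lyses single cells in small chambers and makes amplified full-length cDNA from each, and the stored cDNA of the same 45 EC and 51 TB cells went into 3 experiments. In EQ the cDNA input was equalized between cells and the libraries were pooled by equal volume, in EQ-Vary the pooled volumes were varied by a scaling factor, and EQ-75% repeated EQ at a lower sequencing depth. No label names separate cultures, so each cell type in each experiment was counted as 1 sample, no test between EC and TB was possible, and the SDs given here are between cells. After cells of low depth or with counts concentrated in few genes were left out by the study's limits, 38 EC and 48 TB cells passed in EQ, 38 and 46 in EQ-Vary, and 39 and 50 in EQ-75%. The median total count of the passing EQ cells was 2025166 in EC (471598 to 3966827) and 1968586 in TB (365557 to 3479268). Values are CPM, the rounded expected count of a gene per 1000000 counts of its cell, and EQ is meant where no experiment is named.

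MMPs are zinc-dependent proteases that cleave collagens, laminins and other matrix proteins, and most are secreted as inactive proenzymes, while the membrane-type MMPs are held at the cell surface. ADAMTS enzymes are secreted relatives with thrombospondin repeats that cut proteoglycans such as versican and aggrecan, trim procollagens or process single plasma proteins. TIMPs bind and block the active site of these enzymes, and TIMP3 differs from the others in being held in the matrix and in blocking several ADAMTS enzymes. In sprouting endothelium and in invading trophoblast, this balance of proteases and inhibitors is known to govern how the basement membrane is opened.

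The labels were set against fixed marker lists, which were chosen with earlier results of these data known. All 11 endothelial markers with enough counts were at least 2-fold higher in EC, and the summed level of the 12-gene list had a median of 4186 CPM over EC cells and 19.8 CPM over TB cells, whose highest cell reached 94.4 CPM. Of 9 trophoblast markers with enough counts, 8 were at least 2-fold higher in TB, with a summed median of 3039 CPM in TB and 334 CPM in EC. Among the defining markers, CLDN5 was at 0 in TB and averaged 4.84 CPM in EC, while CGB5 was at 0 in EC and averaged 0.635 CPM in TB, and CGA averaged 2.93 CPM in TB. Mesenchymal markers moved with the TB group, with 6 of 8 at least 2-fold higher and a summed median of 3942 CPM (656 to 10874) against 42.1 CPM (6.04 to 784) in EC. The part of such cells or programs in the TB values given here was not tested. The summed medians of the 6 pluripotency markers were 413 CPM in both types, with SOX2 at 0 in EC, and of the 5 tested NANOG (2.45-fold) and POU5F1 (2.13-fold) were called higher in EC and DPPA4 (2.85-fold) in TB. Without EC cell 15, described below, NANOG was 1.32-fold and POU5F1 1.41-fold higher and neither was called. Both tested endoderm markers were higher in EC, with a summed median of 3.75 CPM in EC and 0 in TB, and EC cell 3 was highest at 999 CPM. EC cell 15 went against its label, since it had the lowest EC marker sum (456 CPM, with the next cell at 1638) and the highest TB and pluripotency sums among the EC cells (2265 and 2755 CPM). Member results that rest on this cell are given with and without it.

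Low counts of genes of the other cell type were present throughout. The endothelial receptor gene KDR had at least 1 count in 100% of TB cells, at a mean of 0.267% of its EC level, and the stromal gene LUM had a count in 100% of EC cells at 0.337% of its TB level. Over the 8 endothelial genes examined in this way the level in TB was 0.142% (TIE1) to 2.94% (EMCN) of that in EC. On the TB side it was 0.303% (VGLL1) to 50.8% (GATA3), where genes such as GATA3, ACTA2 and TFAP2A were plainly present in both types. A share of cells with at least 1 count is therefore given beside the share of cells with at least 10 CPM, a limit chosen after the data were seen.

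Both cell types expressed members of all 3 families, and the inhibitors differed most. The 4 TIMP genes summed to 1141 ± 607 CPM in EC (SD, n = 38 cells; lowest 206, median 933, highest 2690.1) and to 95.3 ± 80.7 CPM in TB (n = 48; 1.88, 88.0 and 352), so 1 EC cell lay within the TB range and the next lowest, at 418 CPM, above it. The MMP genes summed to 478 ± 424 CPM in EC (11.7, 361 and 1630.2) and 120.2 ± 160.0 CPM in TB (9.70, 59.0 and 751). The ADAMTS genes summed to 843 ± 618 CPM in EC (131, 695 and 3270.1) and 707 ± 404 CPM in TB (166, 630.0 and 2212), with wide overlap. ADAMTS4, whose values are uncertain as given below, made up 288 CPM of the EC mean and 74.5 CPM of the TB mean. The order of the 2 means rests on this gene. EC cell 15 lay inside the EC range for each family, at 717 CPM of TIMP, 394 CPM of MMP and 572 CPM of ADAMTS transcripts.

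By accounting, 8 members had no count in any passing EQ cell, 12 had counts but a mean under 1 CPM in both types, 7 had a mean of 1 to 10 CPM in the higher type and 17 a mean of at least 10 CPM, of which 8 reached 100 CPM. EC and TB were compared where the average of the 2 group means was at least 1 CPM, which held for 23 members and 12351 of all genes, and a gene was called at 2-fold or more. Of the 23 members, 9 were called higher in EC (39.1%), where 19.2% of all genes were, and 10 were called higher in TB (43.5%), where 26.2% of all genes were. The median log2 ratio of EC over TB was -0.03 over these members and -0.06 over all genes, so that members lay on both sides in similar number. No member had every EC cell above every TB cell, which 0.0567% of genes had, and 1 member, ADAMTS18, had every TB cell above every EC cell, which 0.113% of genes had. The filter on low values kept members through the type in which they were high, so the counts describe those that could be compared and not the family. In EQ-Vary the calls were again 9 and 10 of 23, and in EQ-75% they were 9 and 9 of 24. The plot of mean levels shows members far from the diagonal on either side of it.

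**Figure D1:**
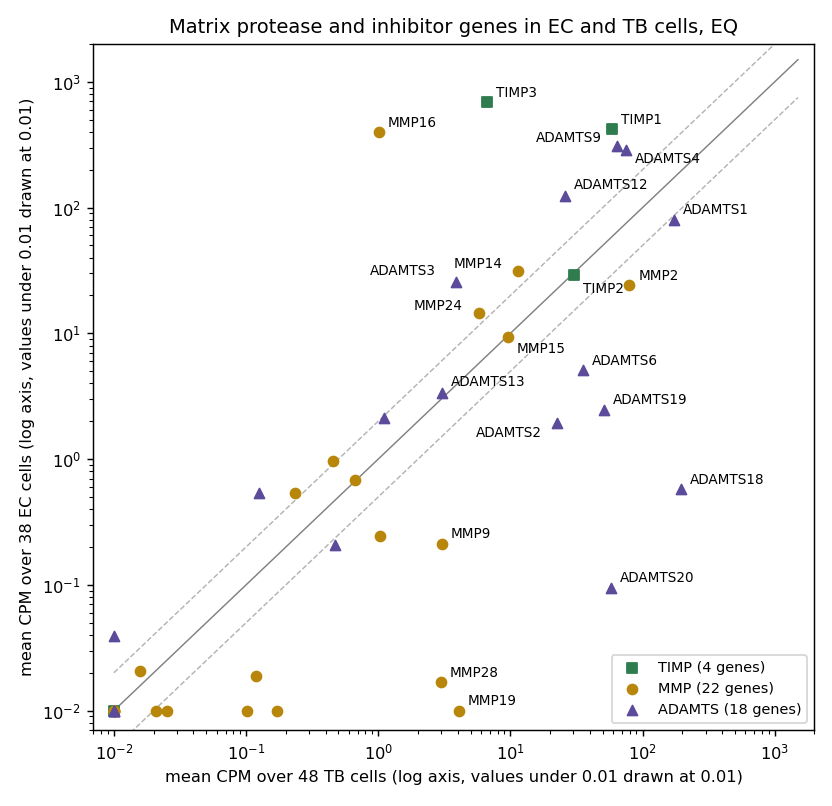
Mean CPM of each MMP, ADAMTS and TIMP gene over 48 TB cells (horizontal, log axis) and 38 EC cells (vertical, log axis) of EQ, with the line of equal levels solid and 2-fold differences dashed. TIMP3 (690.4 and 6.70 CPM in EC and TB) and MMP16 (397 and 1.02 CPM) lie far above the line, and ADAMTS18 (0.575 and 196 CPM) and ADAMTS20 (0.0949 and 57.8 CPM) far below it.

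Of the inhibitors, TIMP1 and TIMP3 were higher in EC, TIMP2 was at like mean levels in both types, and TIMP4, best known from heart, had no count. TIMP1, a soluble inhibitor of many MMPs (chrX:47582408-47586789, GRCh38), was detected in every cell, with a lowest, median and highest EC cell of 74.2, 469.7 and 752 CPM against 0.672, 41.1 and 200.4 CPM in TB. All 38 EC cells and 37 of 48 TB cells had at least 10 CPM, and the lower EC cells overlapped the upper TB cells. Its mean of 421 ± 186 CPM in EC was 7.22-fold the 58.4 ± 53.5 CPM of TB.

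TIMP3 (chr22:32801705-32863041) showed the higher contrast. EC cells ranged from 4.48 to 2525 CPM with a median of 517 CPM, and 37 of 38 had at least 10 CPM (97.4%, exact binomial 95% interval 86.2 to 99.9). In TB the median was 1.18 CPM and 2 of 48 cells had at least 10 CPM (4.17%, 0.509 to 14.3), namely TB cell 15 at 167 CPM and TB cell 19 at 76.4 CPM. These 2 TB cells stood inside the EC range. The other 46 TB cells were below 10 CPM, as was the lowest EC cell at 4.48 CPM, so the ranges also meet there. The means, 690.4 ± 634 CPM in EC and 6.70 ± 26.1 CPM in TB, differed 103.1-fold, or 210.4-fold without TB cell 15, and 122-fold in EQ-Vary and 120.1-fold in EQ-75%. TIMP1, TIMP3 and TIMP4 lie inside SYN1, SYN3 and SYN2 on the opposite strand, with no exon in common.

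TIMP2, which blocks MMPs and also bridges pro-MMP2 to MMP14 for activation, had a median of 2.66 CPM in EC and 9.49 CPM in TB. At least 10 CPM was reached in 9 of 38 EC cells and 24 of 48 TB cells (50.0%, 35.2 to 64.8). The means were close, at 29.2 ± 74.2 and 30.3 ± 54.9 CPM, but the EC mean leaned on EC cell 15 at 344 CPM and EC cell 16 at 222 CPM. Without EC cell 15 the EC mean was 20.7 CPM and the TB mean 1.47-fold higher, still under 2-fold.

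Of the 6 membrane-type MMPs, 3 of the 4 that could be compared were called higher in EC (median log2 ratio 1.38) and 1, MMP15, was not called. MMP16, the surface protease also named MT3-MMP, carried 397 of the 478 CPM that the MMP genes averaged in EC cells. Its EC cells ranged from 1.06 to 1510.0 CPM with a median of 275 CPM, and 28 of 38 had at least 10 CPM (73.7%, 56.9 to 86.6). The other 10 EC cells lay within the range of the TB cells but above the TB median. TB cells had a median of 0.491 CPM and a highest cell of 14.6 CPM. The means of 397 ± 420 and 1.02 ± 2.17 CPM differed 391-fold, 589-fold in EQ-Vary and 137-fold in EQ-75%. In EQ-75% the lower figure came with TB cell 28, which passed in that experiment alone and had 146 CPM. Over all 96 cells, with those outside the study's limits kept, the difference was 46.8-fold, and TB cell 48, which failed in EQ, had 350.0 CPM there. That library held only 8572 counts in all, so very few counts make up this value. The TB mean was 0.256% of the EC mean, within the range of the endothelial markers in TB cells.

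MMP14, or MT1-MMP, cleaves fibrillar collagen and activates pro-MMP2 (chr14:22836560-22849041). It was broadly but weakly present in EC, with a median of 17.1 CPM, a highest cell of 275 CPM (EC cell 13) and 26 of 38 cells at 10 CPM or more. TB cells had a median of 2.92 CPM and 10 of 48 reached 10 CPM, up to 127 CPM in TB cell 12, so the groups overlapped. The means were 31.04 ± 48.4 CPM in EC and 11.5 ± 26.2 CPM in TB, a 2.71-fold difference that fell to 1.59-fold in EQ-75%, under the 2-fold limit.

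The remaining membrane-type genes were sparse. MMP15 (MT2-MMP) averaged 9.38 ± 24.3 CPM in EC and 9.60 ± 20.1 CPM in TB, with medians of 2.17 and 1.18 CPM. EC cell 15 was its highest EC cell at 143 CPM, and without it TB was 1.66-fold higher. MMP24 (MT5-MMP), known from neural tissue, had medians of 0 in both types and at least 10 CPM in 4 EC and 5 TB cells. Its EC mean of 14.4 ± 57.8 CPM rested on EC cell 37 (285 CPM) and EC cell 15 (224 CPM), and the 2.498-fold difference from TB (5.78 ± 19.9 CPM) became 1.23-fold without EC cell 37 and 1.52-fold without EC cell 15, and 4.17-fold without TB cell 27. Of its 866 windows of 51 bases, 120 also matched the antisense gene MMP24OS, whose exons overlap it, so its counts are uncertain. The lipid-anchored MMP17 and MMP25 averaged 0 and 0.973 CPM in EC and 0.102 and 0.455 CPM in TB, and MMP25 averaged 0.501 CPM in EC without EC cell 15.

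**Figure D2:**
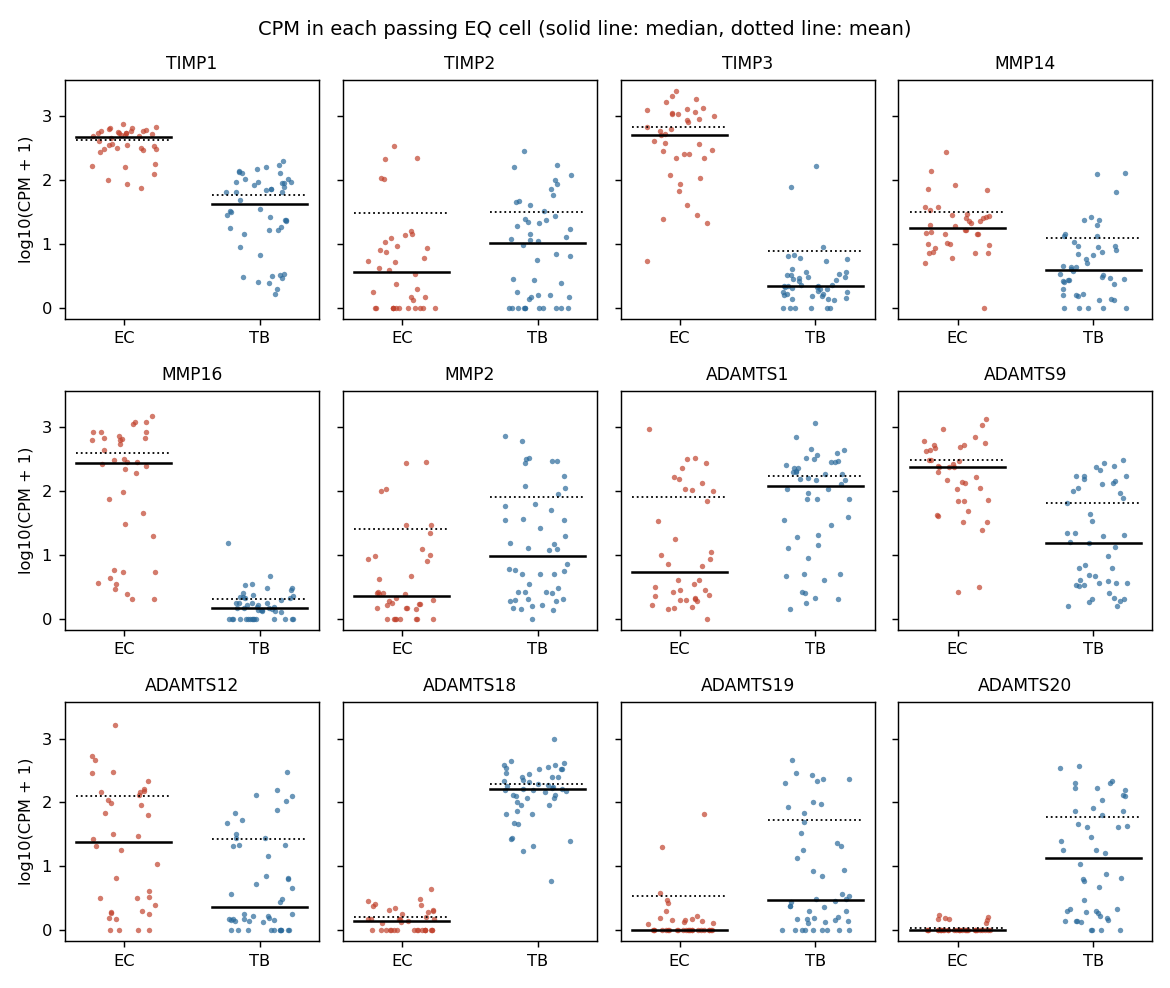
CPM of 12 members in each passing EQ cell, as log10(CPM + 1), with EC (38 cells) and TB (48 cells) side by side, a solid line at the median and a dotted line at the mean. MMP16 in EC runs from 1.06 to 1510.0 CPM with 10 cells below 10 CPM, and ADAMTS18 is the member whose groups do not overlap (highest EC cell 3.33 CPM, lowest TB cell 4.96 CPM).

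Both gelatinases, which cleave denatured collagen and the type IV collagen of basement membranes, were called higher in TB (median log2 ratio -2.77). MMP2 (chr16:55389700-55506691) had a median of 1.26 CPM in EC and 8.68 CPM in TB. At least 10 CPM was reached by 8 of 38 EC cells (21.1%, 9.55 to 37.3) and 24 of 48 TB cells (50.0%, 35.2 to 64.8), whose highest members were EC cell 21 at 291 CPM and TB cell 20 at 745 CPM. The groups overlapped over most of the range, and the means of 24.2 ± 66.6 and 79.4 ± 158 CPM differed 3.28-fold.

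MMP9 was a single-cell result. TB cell 17 had 136 CPM and held 93.1% of the summed TB level, 6 other TB cells and 2 EC cells had lower counts, and no other cell exceeded 7.03 CPM. The TB mean of 3.04 ± 19.6 CPM was 14.3-fold that of EC (0.213 CPM), but 1.01-fold without TB cell 17. Leaving out EC cell 6 or EC cell 10, the 2 EC cells with counts, gave 28.7-fold and 27-fold.

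MMP14, TIMP2 and pro-MMP2 are known to form a complex at the cell surface, so their presence in the same cell was counted. At 10 CPM or more, all 3 were together in 0 of 38 EC cells (95% upper bound 9.25%) and in 3 of 48 TB cells (6.25%, 1.31 to 17.2). MMP2 and MMP14 were together in 5 EC and 5 TB cells, MMP2 and TIMP2 in 1 and 11, and MMP14 and TIMP2 in 5 and 7. In EC the gene that was commonly present was MMP14, while in TB it was MMP2 or TIMP2. Cells below 10 CPM can still hold transcripts of these genes.

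The secreted collagenases, stromelysins and matrilysins were near or at 0 in both cell types. Of the 3 collagenases, which cut fibrillar collagen, MMP1 averaged 0.0190 CPM in EC and 0.118 CPM in TB, MMP8 0.0205 and 0.0158 CPM, and MMP13 0.686 and 0.666 CPM. MMP13 had a count in 52.6% of EC and 52.1% of TB cells, no cell at 10 CPM, and 92.6% of its nonzero values not whole, with 0.857% of its 51-base windows matching other genes. Of the stromelysin and matrilysin genes, MMP3 had 17 counts in TB cells and none in EC cells, MMP10 had 2 counts in TB cells, MMP11 averaged 0.533 CPM in EC and 0.235 CPM in TB, and MMP7 had no count. None of these 7 genes could be compared under the limit on low values.

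Of the MMP genes, 9 lie side by side on chr11:102520508-102955732. Their highest mean was the 0.686 CPM of MMP13 in EC, and 3 of the 9 (MMP7, MMP20 and MMP27) had no count in any passing EQ cell. As a description of this block of low levels beside 2 of the most contrasted members, the 250 bases before the RefSeq start site (GRCh38.p14, given 5′ to 3′ on the strand of the gene) are printed with each CG dinucleotide in capitals.
MMP27, chr11:102705770-102706019, minus strand: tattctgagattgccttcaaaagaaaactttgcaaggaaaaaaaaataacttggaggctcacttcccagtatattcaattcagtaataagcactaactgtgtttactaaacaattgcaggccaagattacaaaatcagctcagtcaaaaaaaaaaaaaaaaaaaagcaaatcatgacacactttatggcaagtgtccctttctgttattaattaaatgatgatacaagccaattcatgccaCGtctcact
MMP10, chr11:102780629-102780878, minus strand: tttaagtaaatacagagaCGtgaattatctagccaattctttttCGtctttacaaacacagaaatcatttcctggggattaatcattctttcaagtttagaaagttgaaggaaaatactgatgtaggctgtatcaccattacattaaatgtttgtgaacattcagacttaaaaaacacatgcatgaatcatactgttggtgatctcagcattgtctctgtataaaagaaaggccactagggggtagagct
ADAMTS18, chr16:77435035-77435284, minus strand: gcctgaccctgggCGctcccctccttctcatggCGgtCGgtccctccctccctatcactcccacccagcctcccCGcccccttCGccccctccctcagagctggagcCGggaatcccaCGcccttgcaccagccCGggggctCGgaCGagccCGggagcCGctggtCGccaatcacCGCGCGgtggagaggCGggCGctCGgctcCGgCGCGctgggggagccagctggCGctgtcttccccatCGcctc
TIMP3, chr22:32801455-32801704, plus strand: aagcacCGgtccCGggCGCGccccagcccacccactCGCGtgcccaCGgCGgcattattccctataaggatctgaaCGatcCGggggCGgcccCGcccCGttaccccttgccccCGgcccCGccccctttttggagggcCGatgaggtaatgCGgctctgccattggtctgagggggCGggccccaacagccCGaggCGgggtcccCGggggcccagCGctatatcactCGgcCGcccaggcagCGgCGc
These windows hold 1, 2, 24 and 26 CG dinucleotides, in that order. RefSeq promoters were at hand for 25 of the 44 members. The 5 from the chromosome 11 block (MMP7, MMP8, MMP10, MMP20 and MMP27) had a median of 2 CG (0 to 3). MMP1, MMP3, MMP12 and MMP13 of that block were not covered, among them the gene with its highest mean. The 20 from elsewhere had a median of 21.5 (6 to 40), where all 35116 promoters of that length had a median of 11 and 29.3% had at most 3. Outside the block, the median was 22 in 11 genes with a mean of at least 10 CPM and 19 in 9 genes with lower means. ADAMTS14, with no count, had 35, and TIMP4 and MMP21, also with no count, had 11 and 6. A CG is read on both strands at once, and its number is a property of these letters and not of methylation, which was not measured.

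Among the other MMPs, MMP19 and MMP28 were called higher in TB and rested on few cells. MMP19, a secreted MMP with basement membrane substrates, had no count in the 38 EC cells, with an exact 95% upper bound of 9.25%. In TB it had counts in 11 of 48 cells, 3 of them at 10 CPM or more and TB cell 23 at 111 CPM, and the mean of 4.06 ± 16.5 CPM was at least 106-fold higher than a floor of 3 counts over the EC group, or at least 46.7-fold without TB cell 23, when the average fell under 1 CPM. MMP28 (epilysin) had 1 count in EC and 257 in TB, a ratio of 208.5 per unit of depth with a counting interval of 37.1 to 8266 and no account of the spread between cells. Its TB counts lay in 15 of 48 cells, 4 of them at 10 CPM or more, and without the highest, TB cell 6 at 53.0 CPM, its average also fell under 1 CPM. MMP23B, for which a near-identical pseudogene is known, had no window shared with another protein-coding gene and averaged 0.247 CPM in EC and 1.02 CPM in TB. MMP12, the macrophage elastase, had 2 counts in 1 TB cell, and MMP20, MMP21 and MMP27 had none.

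Of the 7 ADAMTS enzymes grouped here as proteoglycanases, 4 could be compared, with ADAMTS4 and ADAMTS9 higher in EC, ADAMTS1 and ADAMTS20 higher in TB, and a median log2 ratio of 0.42. ADAMTS9, which cleaves versican and aggrecan (chr3:64515654-64688000), was the most even in EC, where cells ranged from 1.67 to 1334 CPM with a median of 239 CPM and 36 of 38 had at least 10 CPM. TB cells had a median of 14.6 CPM and a highest value of 308 CPM, and 26 of 48 had at least 10 CPM, so the upper TB cells lay around the EC median. The means of 309 ± 313 and 64.0 ± 86.9 CPM differed 4.83-fold, and 4.62-fold in EQ-75%.

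ADAMTS1, a versican-cleaving enzyme known to restrain vessel growth (chr21:26835755-26845409), was split among EC cells. The EC median was 4.45 CPM, 14 of 38 cells had at least 10 CPM (36.8%, 21.8 to 54.0), and EC cell 25 reached 930.5 CPM. The TB median was 119 CPM, 37 of 48 cells had at least 10 CPM (77.1%, 62.7 to 88.0), and TB cell 41 reached 1161 CPM. The means were 79.8 ± 170.1 CPM in EC and 172 ± 214 CPM in TB, 2.15-fold apart. This call lay near the limit, since the difference was 1.89-fold without TB cell 41 and 1.93-fold in EQ-75%, and the log2 ratio of -1.10 became -0.86 with TMM factors and -0.98 with scran size factors. All 14 EC cells with at least 10 CPM of ADAMTS1 also had at least 10 CPM of ADAMTS9, as did 22 of the 37 such TB cells. Over all cells ADAMTS9 was at that level in 36 of 38 EC cells (94.7%) and 26 of 48 TB cells (54.2%), so these counts do not set the ADAMTS1 cells apart.

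ADAMTS20, a relative of ADAMTS9 known from pigment cell and palate development (chr12:43353866-43552203), was near 0 in EC and common in TB. EC cells had 7 counts in all, in 7 of 38 cells, and a highest value of 0.723 CPM. TB cells ran from 0 to 364 CPM with a median of 12.5 CPM, and 25 of 48 (52.1%, 37.2 to 66.7) had at least 10 CPM. The 57.8 ± 88.8 CPM of TB was 609-fold the 0.0949 CPM of EC, whose level was 0.164% of TB. This lay below the trophoblast and mesenchymal markers examined, which in EC were at 0.303% (VGLL1) to 50.8% (GATA3) of TB.

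ADAMTS4, an aggrecanase (chr1:161184302-161199054), was read in every cell, with a lowest, median and highest value of 29.8, 134 and 1866 CPM in EC and 13.1, 58.4 and 329 CPM in TB. Its means of 288 ± 361 and 74.5 ± 60.1 CPM differed 3.86-fold. These values are uncertain, because 98.9% of its nonzero values were not whole and 148 of its 2329 windows of 51 bases (6.35%) also matched transcripts of 2121 other genes. Over TB cells the genes most like it in rank were NPFFR1 (Spearman's rho 0.867) and SSTR2 (0.835) of 9483 compared, with 97.8% and 98.9% of their values not whole. Over EC cells they were FABP2 (0.656), MEF2A (0.654) and FNBP4 (0.617). Of their values 97.8%, 39.3% and 34.4% were not whole, so the EC neighbours were mixed in this respect. ADAMTS15 averaged 0.0393 CPM in EC from 3 counts in EC cell 15 and 0 in TB, and ADAMTS5 and ADAMTS8 had no count.

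The procollagen N-proteinases remove the amino-terminal propeptide of fibrillar procollagens, and 1 of the 2 that could be compared was higher in each type (median log2 ratio -0.40). ADAMTS2 had medians of 1.10 CPM in EC and 3.31 CPM in TB, with 1 EC cell and 16 TB cells at 10 CPM or more. Its means of 1.95 ± 3.01 and 22.4 ± 57.5 CPM differed 11.5-fold, although 83.1% of its values were not whole and 1.27% of its windows matched 80 other genes. ADAMTS3, which also activates VEGFC with its cofactor CCBE1 (chr4:72280969-72569221), was off in most cells. EC cells 19 and 9 had 569 and 395 CPM while the EC median was 0, and TB cells peaked at 73.2 CPM. The 25.5 ± 111 CPM of EC was 6.57-fold the 3.88 ± 13.1 CPM of TB, and 2.79-fold without EC cell 19, 4.0-fold without EC cell 9 and 10.6-fold without TB cell 49. The same 2 EC cells were highest in all 3 experiments. ADAMTS14 had no count.

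Of the 8 other ADAMTS genes, 6 could be compared, and 3 were called higher in TB, 1 in EC and 2 in neither (median log2 ratio -1.32). ADAMTS18, an orphan enzyme linked to eye and epithelial development (chr16:77247813-77435034), separated the 2 cell types. EC cells ran from 0 to 3.33 CPM with a median of 0.363 CPM, and TB cells from 4.96 to 971 CPM with a median of 163 CPM, so each TB cell lay above each EC cell. At least 10 CPM was reached by 0 of 38 EC cells (up to 9.25%) and 47 of 48 TB cells (97.9%, 88.9 to 99.9). The means of 0.575 ± 0.755 and 196 ± 164 CPM differed 341-fold, 479-fold in EQ-Vary and 381-fold in EQ-75%, and the EC level was 0.294% of TB. Without EC cell 15 it was 332-fold. With all 96 cells kept the difference was 33.2-fold and the groups overlapped. EC cells 1, 14 and 41, among the 7 EC cells outside the study's limits, then had 87.6, 75.1 and 71.8 CPM. Their EQ totals were only 11410, 13313 and 13925 counts, so 1 count gives such a value. In EQ-75%, where EC cells 1 and 14 passed, the highest EC cell had 2.92 CPM.

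ADAMTS6 and ADAMTS19 were also higher in TB but in fewer cells. ADAMTS6 (chr5:65148738-65481920) had medians of 0 in EC and 11.97 CPM in TB, with 3 of 38 and 25 of 48 cells at 10 CPM or more. Its means of 5.08 ± 23.3 and 35.4 ± 59.0 CPM differed 6.96-fold, and 24.3-fold without EC cell 13, which had 139 CPM. ADAMTS19 (chr5:129460281-129738683) had medians of 0 and 1.95 CPM, and 2 EC and 17 TB cells at 10 CPM or more, the highest being TB cell 2 at 466 CPM. Its means of 2.48 ± 10.7 and 51.03 ± 101 CPM differed 20.6-fold, and 62.5-fold without EC cell 43.

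ADAMTS12, which cleaves cartilage oligomeric matrix protein (chr5:33523535-33892019), was the member of this group called higher in EC. EC cells had a median of 22.5 CPM and 22 of 38 (57.9%, 40.8 to 73.7) had at least 10 CPM, with EC cell 28 at 1614 CPM and EC cell 20 next at 527 CPM. TB cells had a median of 1.27 CPM and a highest value of 297 CPM, and 16 of 48 had at least 10 CPM. The means of 124 ± 279 and 25.9 ± 54.9 CPM differed 4.78-fold. Of the 28 EC cells with MMP16, 17 also had ADAMTS12 at 10 CPM or more.

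ADAMTS13, the protease that trims von Willebrand factor, averaged 3.36 ± 10.8 CPM in EC and 3.03 ± 12.1 CPM in TB, with 3 and 4 cells at 10 CPM or more. It was not called, although without TB cell 37 EC was 2.33-fold higher. ADAMTS17 averaged 2.14 CPM in EC and 1.11 CPM in TB, 1.93-fold apart, with 98.4% of its values not whole and windows that matched 633 other genes. ADAMTS7, like ADAMTS12 a cleaver of cartilage oligomeric matrix protein, had counts in 26.3% of EC and 4.17% of TB cells at means of 0.535 and 0.125 CPM, and ADAMTS16 averaged 0.208 and 0.471 CPM.

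**Figure D3:**
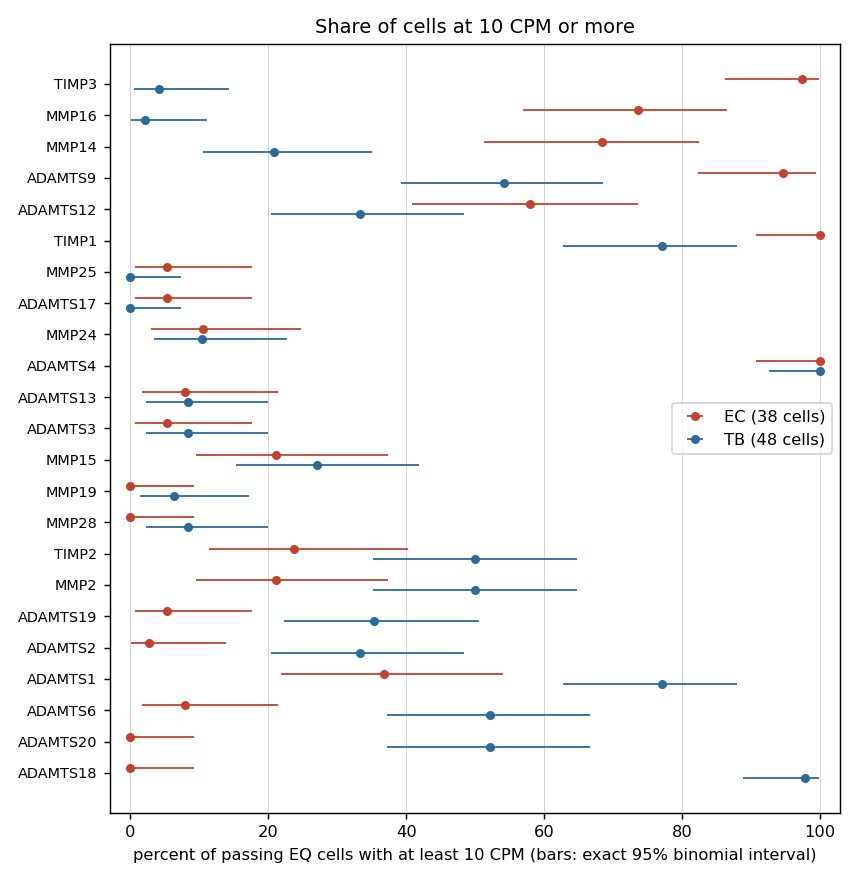
Percent of the 38 EC and 48 TB cells of EQ with at least 10 CPM of each member, for the 23 members at that level in at least 5% of the cells of a type, with exact 95% binomial intervals that cover counting of cells only. Shares in EC and TB are far apart for TIMP3 (97.4% and 4.17%), MMP16 (73.7% and 2.08%) and ADAMTS18 (0 and 97.9%). They are closer for MMP24 (10.5% and 10.4%), ADAMTS13 (7.89% and 8.33%) and MMP15 (21.1% and 27.1%). The intervals leave out differences between cultures, so whether they meet is not a test between EC and TB. The 10 CPM limit was chosen after the data were seen.

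Levels of different genes can be compared only per transcript length, so CPM was divided by the mean transcript length and rescaled to a sum of 1000000. On this scale the order in EC was TIMP1 (1103, above 99.2% of 17024 genes), TIMP3 (269), MMP16 (118), ADAMTS9 (107), ADAMTS4 (88.0) and ADAMTS12 (47.01). In TB it was ADAMTS18 (143, above 92.9% of genes), TIMP1 (139.8), MMP2 (68.9), ADAMTS1 (66.5) and ADAMTS4 (20.8). Close neighbours such as MMP16 and ADAMTS9 in EC, or ADAMTS18 and TIMP1 in TB, are not taken to differ. Their order was not tested, and the SDs given above are in CPM and not on this scale. TIMP2 stood lower in EC, at 17.5, below 7 of the proteases.

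Cell-to-cell spread was measured as the coefficient of variation (CV) of CPM and set against the median CV of all genes in the same bin of mean level (10 equal bins). TIMP1 was even across EC cells, with a CV of 0.441, or 0.517 of that median, and it kept values of 0.435 in EQ-Vary and 0.440 in EQ-75%. TIMP3, ADAMTS9 and MMP16 in EC had CVs of 0.918, 1.01 and 1.06, which were 1.08, 1.19 and 1.24 of the median. ADAMTS18 in TB, although present in each cell, had a CV of 0.839 (1.2 of the median). MMP2 in TB had a CV of 1.99, or 1.98 of the median, and its 5 highest cells held 60.7% of the summed level. ADAMTS3 in EC was the most uneven of the members with a mean of at least 10 CPM, at 4.35 (1.97 of the median), and its 5 highest cells held 99.7%. ADAMTS1 had a CV of 2.13 in EC and 1.24 in TB, or 1.72 and 1.78 of the median, and ADAMTS12 in EC had 2.25 (1.81).

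Few pairs of members had a rank correlation of at least 0.5 in size over cells. Over the 15 members detected in at least 50% of EC cells, 1 of 105 pairs had a Spearman's rho of at least 0.5 in size, which was MMP14 with ADAMTS9 (0.516 over 38 cells in EQ, 0.533 in EQ-75%). The range over these pairs was -0.362 to 0.516. Over 18 members in TB, 0 of 153 pairs reached it, and the range was -0.405 to 0.398 over 48 cells. These correlations share libraries and are descriptions. No share over pairs of all genes was taken, so the counts are not read as a trait of the members. The sets also hold members near 0, such as MMP13 and ADAMTS18 in EC (means of 0.686 and 0.575 CPM). For the same members, CPM and the total count of a cell had a rho between -0.393 and 0.247.

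The number of members with at least 1 count per cell was 15.2 ± 1.64 in EC (12 to 19) and 17.6 ± 2.14 in TB (14 to 24), of 44. TB cells also had more genes of all kinds, at 9276 against 8769. With every cell thinned to 250000 counts, the numbers were 10.3 and 11.8. Within the 84 cells that passed in both, EQ gave 0.452 more members than EQ-Vary (SD of the differences 2.10), and 0.118 more with both libraries thinned to the lower depth. Against EQ-75%, the difference was 1.27 members (SD 1.98, 84 cells), and 0.650 at matched depth. By type it was 1.68 ± 1.97 in EC, with more members in EQ in 27 cells, fewer in 5 and as many in 5. In TB it was 0.957 ± 1.96, with more in 24 cells, fewer in 10 and as many in 13. Genes of all kinds also fell from EQ to EQ-75%, from 8769 to 8118 in EC and from 9276 to 8948 in TB. These are means over all passing cells of each experiment.

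The same cells allowed each member to be followed across the experiments, of which EQ-75% remade the libraries and EQ-Vary changed the pooled volumes. Over the 18 EC members with a mean of at least 1 CPM, the median rho over cells between EQ and EQ-Vary was 0.854, the highest cell was the same for 18 of 18, and 97.5% of 281 values of at least 10 CPM were again at that level. In TB the rho was 0.883 over 24 members, and 21 of 24 kept their highest cell. Between EQ and EQ-75% the medians were 0.843 in EC and 0.887 in TB, with the highest cell kept in 13 of 18 and 22 of 24 members, and 90.1% of 273 and 94.5% of 382 values at or above 10 CPM again. TIMP1, ADAMTS4, TIMP3 and ADAMTS9, at that level in nearly every EC cell, had all their EC values there again (37, 37, 36 and 35). Of members at that level in fewer EC cells, MMP16 repeated in 27 of 28, ADAMTS12 in 20 of 22, MMP14 in 12 of 25 and TIMP2 in 4 of 8. The lowest rho was 0.355 in EC (ADAMTS17) and -0.0355 in TB (MMP16). Cells high for a member in EQ were thus mostly, but not for every member, high again in EQ-75%, a repeat from the same cDNA that does not cover the capture and amplification of the cell.

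**Figure D4:**
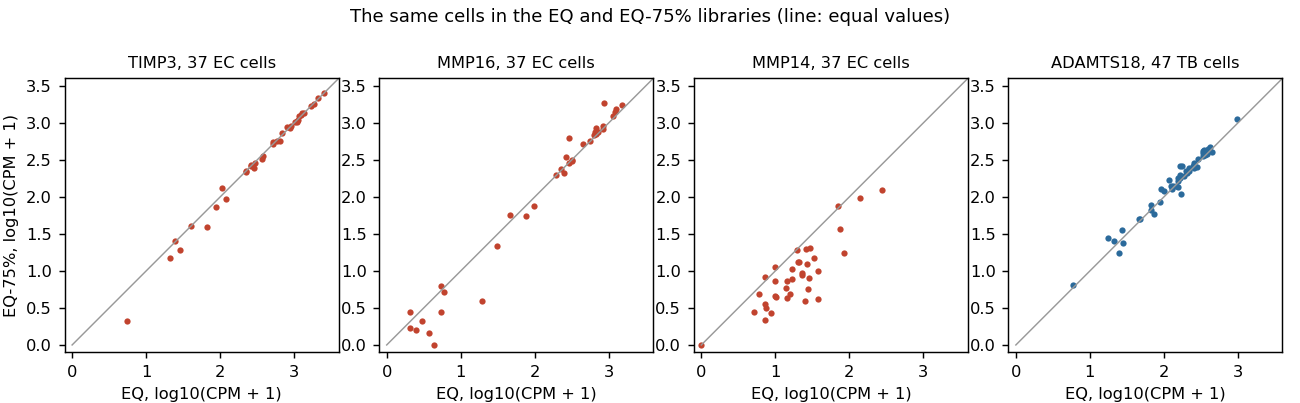
CPM of TIMP3, MMP16 and MMP14 in 37 EC cells and of ADAMTS18 in 47 TB cells, each cell in EQ (horizontal) against EQ-75% (vertical), as log10(CPM + 1), with the line of equal values. MMP14 lies below the line in 33 of 37 cells, whereas TIMP3 follows it and MMP16 is above it in 24 of 37 cells.

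MMP14 differed between EQ and EQ-75%. Its mean over the 37 EC cells passing in both was 31.5 CPM in EQ and 15.6 CPM in EQ-75%, a ratio of 0.494, and it was lower in 33 of 37 cells, while 0.758% of 11485 genes had a lower ratio. In TB the ratio was 0.858, from 11.3 to 9.69 CPM, and it was lower in 33 of 47 cells. TIMP1 in EC went from 430.4 to 371 CPM (0.862, lower in 31 of 37 cells). MMP16 in EC went the other way, from 407 to 481 CPM (1.18, higher in 24 of 37), and so did ADAMTS18 in TB, from 197 to 216 CPM (1.10, higher in 34 of 47).

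GC content of the transcripts moved with these ratios. The Spearman correlation of the log2 ratio of EQ-75% to EQ with GC was -0.792 over 18 members in EC and -0.489 over 24 in TB, beside -0.631 over 11485 and -0.616 over 11888 genes. Between EQ-Vary and EQ it was 0.143 and 0.0217 over members, and -0.116 and -0.0745 over all genes. The GC of MMP14 was 58.4%, of TIMP1 58.0% and of MMP16 43.2%, and the EC ratio of MMP14 was far below that of TIMP1 at like GC. The part of GC in the change of any single member was not tested.

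**Figure D5:**
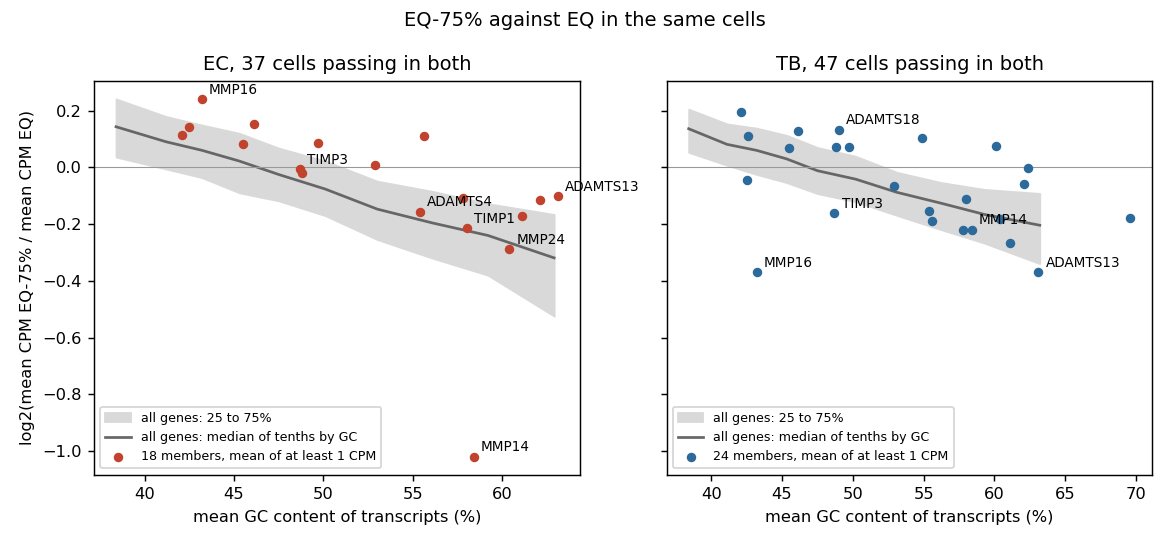
Log2 ratio of mean CPM in EQ-75% over EQ in the same cells (vertical) against the mean GC content of a gene's transcripts in percent (horizontal), with 18 members in 37 EC cells (left), 24 members in 47 TB cells (right), and the median and quartiles of all genes in 10 equal bins of GC in grey. Most members follow the fall of all genes with GC, and MMP14 in EC stands apart at -1.02.

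Regulators, activators and substrates of the proteases were taken from fixed lists, also chosen with earlier results of these data known. For plasminogen activation, a cascade that activates several MMPs, 4 of 5 genes that could be compared were higher in EC and 0 in TB (median log2 ratio 1.60). Urokinase (PLAU) averaged 95.6 CPM in EC and 31.5 CPM in TB, its receptor PLAUR 48.02 and 9.74 CPM, and the inhibitor SERPINE2 56.1 and 23.04 CPM, at 3.04-fold, 4.93-fold and 2.43-fold. Leaving out 1 cell gave 4.94-fold for PLAU (TB cell 17) and 7.62-fold for PLAUR (TB cell 11), and SERPINE2 was 1.47-fold and not called without EC cell 23. Tissue plasminogen activator (PLAT) averaged 12.1 ± 72.9 CPM in EC and was at 0 in TB, at least 389-fold higher than the floor of 3 counts. EC cell 4, at 450 CPM, held 97.8% of that level, and without it the average of the means fell under 1 CPM.

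Of the proprotein convertases, which cut the prodomain of membrane-type MMPs and ADAMTS enzymes, 1 of 3 was called in each direction (median log2 ratio -0.54). FURIN was 2.07-fold higher in EC (41.4 CPM in EC), a call lost in EQ-Vary (1.93-fold), in EQ-75% (1.755-fold) and without EC cell 3, 28, 29 or 31 (1.70-fold to 1.99-fold). PCSK5 was 13-fold higher in TB (36.7 and 2.82 CPM, and 51.2-fold without EC cell 36), PCSK7 was not called (21.1 and 30.6 CPM), and PCSK6 had no count. Among 6 other regulators, 4 were higher in EC and 0 in TB (median 2.27). The membrane-anchored MMP inhibitor RECK averaged 76.5 and 6.61 CPM in EC and TB (11.6-fold), the protease trap A2M 46.5 and 0.0956 CPM (486-fold), the hyaluronan receptor CD44 277 and 0.591 CPM (469-fold) and papilin, PAPLN, 45.2 and 22.5 CPM (2.01-fold). PAPLN lay at the limit, with 1.97-fold in EQ-75% and 1.63-fold without EC cell 5, and A2M was 1488-fold higher without TB cell 7. The MMP inducer BSG (99.3 and 137 CPM) and the uptake receptor LRP1 (11.7 and 22.5 CPM) were not called.

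Of the ADAMTS-like genes, which lack the protease domain, 1 of 4, ADAMTSL3, was higher in EC, through EC cell 3, which held 98.8% of its EC level. The other 3 were not called (median of the 4 log2 ratios 0.23), among them ADAMTSL4 (8.59 and 11.2 CPM) and ADAMTSL5 (11.9 and 11.01 CPM). Of 5 substrates that could be compared, 3 were higher in EC, 0 in TB and 2 were not called (median 6.48). Versican (VCAN) averaged 145 and 0.362 CPM (400.0-fold), von Willebrand factor (VWF) 111 and 1.22 CPM (91.0-fold) and nidogen NID1 157 and 1.76 CPM (89.5-fold), with 617-fold for VCAN without TB cell 5, 596-fold and 59.0-fold for VWF without TB cell 16 and EC cell 13, and 465-fold for NID1 without TB cell 44. Fibrillin FBN1 (62.7 and 44.1 CPM) and NID2 (61.2 and 68.5 CPM) were not called.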

How the data were processed

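The authors trimmed the reads to 51 bases, mapped them to GRCh38 protein-coding genes with Bowtie 1.2.3 (up to 2 mismatches) and estimated with RSEM 1.2.31 the expected counts that they deposited without normalization, in 3 tables for 288 libraries. CASAVA 1.8.2 is also named in the submitters' processing notes. Counts were rounded to whole numbers and scaled to CPM, and cells with a log10 total under 5.4 or over 31% of counts in the 50 top genes were left out, as in the study's methods. Doublets had been removed on cell images in the initial experiment, and no caller was run. Same-numbered cells share cDNA, and their deviations from the type mean correlated at 0.855 or more, each best with its own number.

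EC and TB were compared by the ratio of mean CPM (at least 2-fold, average of at least 1 CPM, floor of 3 counts per group), with no test because each type is 1 sample. Exact binomial and Poisson intervals (95%) cover counting error only, and a group at 0 was set to 3 counts of its summed total. Named genes were all TIMPs, members detected in at least 25% of cells of a type or called, others by counts, and listed pathway genes of at least 10 CPM. The members, lists and settings were chosen with earlier results of these data known. Shared sequence was searched with bwa in 51-base windows, and gene positions were from GENCODE v44. Python 3.11.15, numpy 2.4.6, pandas 2.3.3, scipy 1.17.1, matplotlib 3.10.9, R 4.3.3, scran 1.30.0 and edgeR 4.0.16 were used. Alternatives covered scaling, filters, detection limits, thinning and each left-out cell.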

Additional observations from a re-analysis of the deposited data

How the results depend on the processing

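The count of members called was 6 to 12 in EC (9 in the report) and 8 to 15 in TB (10) over the alternatives, and leaving out each cell in turn gave 8 to 11 and 9 to 10. No log2 ratio of a called member changed sign under the settings run, but with all 96 cells kept that of ADAMTS18 went from -8.41 to -5.05 and that of MMP16 from 8.61 to 5.55. EC cells 1, 14 and 41 and TB cell 48, the highest for these genes among the cells added, had EQ totals of only 8572 to 13925 counts. Leaving out 1 cell removed the calls of MMP24, MMP9, ADAMTS1, MMP19 and MMP28 as given in the report, and added ADAMTS13 without TB cell 37 and ADAMTS17 without TB cell 7, 22, 34, 37 or 51. ADAMTS17 was also called with scran or TMM factors, in EQ-75% and with all cells kept, and ADAMTS1 was not called with either set of factors. The number of members detected per cell depended on the limit, from 15.2 in EC and 17.6 in TB with 1 count to 9.68 and 10.9 with 5 counts, 7.47 and 8.19 with 10 CPM, and 10.3 and 11.8 after thinning to 250000 counts. EC cells of at least 1000000 counts thinned to that total gave 13.4. Without the pairing of cells (no replicate block) the differences of EQ from EQ-Vary and EQ-75% were 0.404 and 1.24 members, against 0.452 and 1.27 within cells. With 1 sample per type, cell-to-cell spread cannot be told apart from differences between cultures, counts below 10 CPM cannot be told apart from a low shared background, and values of ADAMTS4, ADAMTS2, ADAMTS17, MMP13 and MMP24 can depend on how shared reads were divided.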
